A study of Drosophila melanogaster with 50 samples.

Results

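The proteasome is the large protease that degrades proteins marked with ubiquitin. Its barrel-shaped core particle is built from rings of alpha and beta subunits, of which the alpha rings gate the entrance and some beta subunits cut, and its regulatory particle holds ATPases (Rpt proteins) that unfold the substrate and non-ATPase subunits (Rpn proteins) that bind ubiquitin, remove it or hold the lid together. Drosophila carries additional copies of several subunit genes that are transcribed mainly in the male germ line, and proteasomes that contain such copies are known to be needed for sperm maturation.

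The genes described here are the proteasome subunit genes of the Affymetrix Drosophila 2.0 array, chosen as the probe sets whose only gene symbol begins with Prosalpha, Prosbeta, or Rpn or Rpt followed by a number. There were 40 such genes among the 11982 genes that stood alone on a probe set, each with 1 probe set, and 18769 probe sets were tested in all. A further probe set matched the rule but carried 2 symbols, Prosalpha1R and Prosalpha1, and was left out. Subunit genes without a probe set that met the rule are not covered, so the counts are of measured genes. Of the 40 genes, 26 were ubiquitous subunits (6 alpha, 6 beta, 10 Rpn and 4 Rpt genes) and 14 were paralogues with a T or an R after the number (4 alpha, 6 beta, 2 Rpn and 2 Rpt genes). The paralogues were spread over 5 chromosome arms, with 4 on 2L, 2 on 2R, 2 on 3L, 4 on 3R and 2 on X. The probe sets of Prosbeta5, Prosbeta7, Rpn6, Rpn12R and Rpn13 carried a suffix for shared hybridization, so part of their signal can come from related transcripts.

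The 50 arrays measured total RNA of whole adult flies of the Oregon R strain in 18 groups, after stays in facilities that change the effective gravity. In the experiment with the random positioning machine (RPM), which turns the sample about changing axes, flies aged 5 days were kept at 14C. Labelled females were in the machine at 0g (n = 3) or outside it at 1g (n = 3). Labelled males were likewise at 0g (n = 4) or outside at 1g (n = 3). In the magnet, where levitation sets the effective gravity inside a strong field (marked by *), labelled females aged 5 days at 14C were placed at 0g*, 1g* and 2g* (n = 3 each), with controls outside the magnet at 14C (n = 2) and 24C (n = 3). The 80 h magnet run held labelled females aged 5 days at 0g* and 1g* (n = 2 each, 14C) and outside at 24C (n = 3). In the large diameter centrifuge (LDC), labelled females were kept at 22C at 2g (n = 4), on the rotational control at 1g (1g-rot, n = 2) or outside at 1g (n = 2), at 5 days and again at 20 days of age. The labels name the replicates biological but do not say how many flies each held. Values are log2 intensities normalized with RMA, and differences between groups are log2 differences of group means with their standard error.

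In the RPM, transcripts known from 1 sex were high on the arrays labelled as the other. On the 6 arrays of labelled females the median of 21 accessory gland genes was 11.02 to 12.06 and that of 22 testis genes 10.02 to 10.61, against 3.76 to 6.74 and 3.9 to 6.69 on the 7 arrays of labelled males. The medians of 12 eggshell genes were 4.82 to 8.22 on labelled females and 10.19 to 12.26 on labelled males, and those of the 3 yolk protein genes 5.2 to 12.99 and 13.67 to 14.20. The labels are kept as given, and groups are called labelled females and labelled males throughout. On 6 arrays, called mixed-sex arrays, transcripts of both sexes were present (an accessory gland median over 5 with a yolk protein median over 7): replicates 2 and 3 of labelled females at 0g, replicate 3 of labelled females at 1g, replicate 1 of labelled males at 0g, magnet 1g* replicate 1 and 80 h 1g* replicate 1. Replicate 3 of labelled females at 1g met the rule through the yolk protein genes (9.62) without the other female lists. Its eggshell median was 5.13, against 5.125 and 4.985 on replicates 1 and 2. Its median of 21 oocyte and germ line genes was 5.16, against 5.28 and 5.2. The background level of an array was taken from 50 plant control probe sets (their 95th percentile) and lay between 3.86 and 4.49.

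Of the 14 paralogues, 13 were well above background on the labelled females of the RPM, and Prosbeta4R2 was near it. The labelled males were lower, with every paralogue at 5.16 or below. On each labelled female array 13 or 14 of them were above background, and their median level was 6.09 to 6.91. The labelled males had 5 to 12 above background and a median of 3.87 to 4.44, and without replicate 1 at 0g, which held transcripts of both sexes, 5 to 8 were above background. In bulk RNA of whole flies, fewer cells of a type and less RNA per cell cannot be told apart.

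The alpha ring paralogue Prosalpha6T is a testis copy of Prosalpha6 that is known to be needed for sperm maturation. Its levels on the labelled females were 8.17, 7.89 and 8.01 at 0g and 8.04, 7.88 and 8.11 at 1g. On the labelled males they were 4.36, 4.23, 3.61 and 3.84 at 0g and 3.88, 3.59 and 3.54 at 1g. All labelled female arrays were thus above all labelled male arrays. At 1g the difference was −4.34 ± 0.18 (SE; limma, Benjamini-Hochberg adjusted p = 7.9e-10), and since the labelled male mean of 3.67 was at background this is given as at least 15.4-fold lower on labelled males. The other alpha paralogues followed the same order. Prosalpha4T2 ranged from 6.87 to 7.60 (median 7.26) on labelled females and from 4.70 to 5.16 (median 4.84) on labelled males, and fell by 2.41 ± 0.19 at 1g (adjusted p = 1.4e-07). Prosalpha3T ranged from 5.55 to 6.36 and from 3.74 to 4.18, at least 4.01-fold lower on labelled males at 1g. Prosalpha4T1 ranged from 5.08 to 5.95 and from 3.48 to 4.14, at least 2.46-fold lower.

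Among the beta ring paralogues, copies of the subunits with trypsin-like activity (Prosbeta2) and chymotrypsin-like activity (Prosbeta5) are measured. Prosbeta5R1 was at 7.98, 7.43 and 7.89 on labelled females at 0g and at 8.03, 7.82 and 7.97 at 1g. On labelled males it was at 3.88, 3.55, 3.64 and 3.46 at 0g and at 3.46, 3.29 and 3.30 at 1g. No array of labelled males came near the labelled females, and the difference at 1g was −4.59 ± 0.15 (adjusted p = 4.4e-10), given as at least 14.6-fold because the labelled male mean of 3.35 was at background. Prosbeta5R2 had a smaller contrast, with 5.36 to 6.2 (median 5.8) on labelled females and 3.69 to 4.05 (median 3.85) on labelled males, at least 3.41-fold at 1g. For the copies of Prosbeta2, Prosbeta2R2 fell by 3.02 ± 0.26 at 1g (means 3.73 and 6.75, at least 6.42-fold) and Prosbeta2R1 by 1.34 ± 0.16 (means 4.40 and 5.74, adjusted p = 6.1e-06). The copies of Prosbeta4 differed from each other: Prosbeta4R1 was at 7.13 to 7.53 on labelled females and 3.64 to 4.51 on labelled males, at least 9.62-fold lower at 1g. Prosbeta4R2 was near background everywhere, at 3.86 to 4.30 on labelled females and 3.65 to 4.06 on labelled males. Its fall of 0.50 ± 0.12 at 1g passed the test (adjusted p = 0.0035) but the bound was only 1.10-fold, and it did not pass when each array was centred on its median.

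The regulatory particle paralogues showed the same order. Rpn12R, a copy of the lid subunit gene Rpn12, was at 7.65, 7.09 and 7.58 on labelled females at 0g and at 7.54, 7.58 and 7.70 at 1g. On labelled males it was at 4.51, 4.15, 3.80 and 3.88 at 0g and at 3.64, 3.93 and 4.22 at 1g. It was at least 11.03-fold lower on labelled males at 1g. Rpn13R, a copy of the gene of the ubiquitin receptor Rpn13, fell by 2.11 ± 0.22 (means 4.14 and 6.25, adjusted p = 1.8e-06). The ATPase copy Rpt3R was at 7.06 to 7.78 on labelled females and 4.33 to 5.08 on labelled males, and it fell by 2.96 ± 0.22 at 1g (adjusted p = 7.9e-08). Rpt4R fell by 1.99 ± 0.19 (means 4.44 and 6.44, adjusted p = 8.2e-07).

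**Figure D1:**
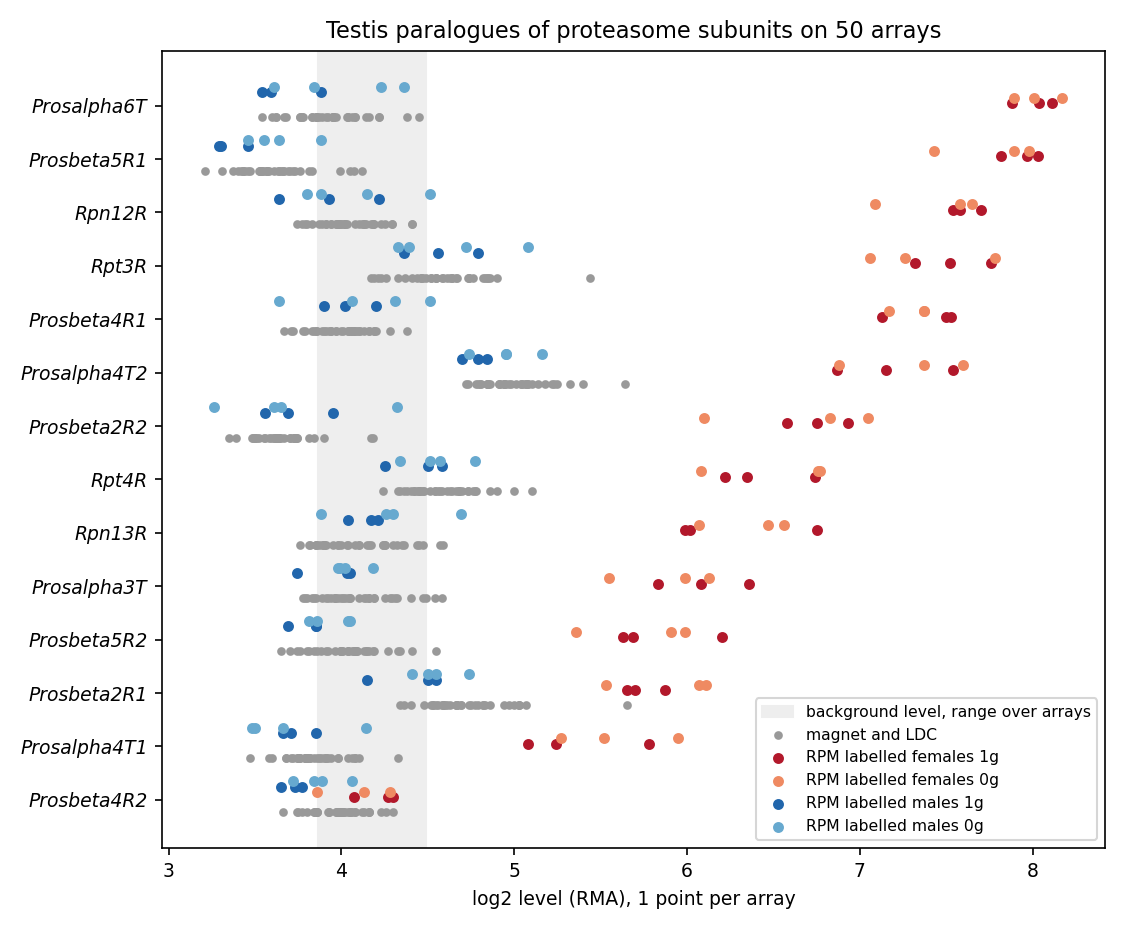
Log2 level of each of the 14 paralogues on every array, 1 point per array, with the RPM groups coloured, the magnet and LDC arrays grey and the range of the background level (3.86 to 4.49) shaded. Apart from Prosbeta4R2, every paralogue is above 5 on all labelled female arrays of the RPM, and the labelled males lie close to the magnet and LDC arrays.

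At 1g, 14 of 14 paralogues fell on labelled males with no overlap between arrays, at a median of −2.28, where 22.7% of all probe sets fell and 27.1% were lower without overlap. Their medians were −2.28 for the 4 alpha, −2.53 for the 6 beta, −2.90 for the 2 Rpn and −2.48 for the 2 Rpt copies. The beta copies alone ran from −4.59 to −0.50. On labelled males at 1g 9 of the 14 paralogues were at background, so these medians can understate the falls. At 0g, 13 of 14 fell, at a median of −2.21, where 21.4% of all probe sets fell and 19.8% were lower without overlap. Prosbeta4R2 was the exception with a difference of −0.21 ± 0.12 (adjusted p = 0.14) and overlapping arrays. The testis and accessory gland medians given above moved with these levels, and their part in the result was not tested. With the mixed-sex arrays left out, 14 of 14 fell at 1g, and the share of all probe sets in that setting is not given here. At 0g labelled females then had 1 array, with a paralogue median of 6.80. The remaining labelled males at 0g had paralogue medians of 3.93 to 4.145. The array of labelled males at 0g with transcripts of both sexes had the highest value of its group for 9 of the 14 paralogues.

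The difference between a paralogue and its ubiquitous partner within an array shifted in the same direction for every pair. Prosalpha6T minus Prosalpha6 was −2.09 to −1.65 on the 6 labelled female arrays and −6.99 to −5.87 on the 7 labelled male arrays, a shift of −4.72 averaged over both gravity levels. Prosbeta5R1 minus Prosbeta5 shifted by −4.66, Rpn12R minus Rpn12 by −4.21 and Prosbeta4R1 minus Prosbeta4 by −3.74. The shift was −3.33 for Prosbeta2R2, −3.31 for Rpt3R, −2.96 for Prosalpha4T2, −2.57 for Rpt4R, −2.35 for Prosalpha4T1, −2.33 for Rpn13R, −2.22 for Prosbeta5R2, −2.14 for Prosalpha3T and −1.69 for Prosbeta2R1. It was smallest for Prosbeta4R2, at −0.83, and there the 2 label groups also did not overlap (−6.72 to −6.41 and −7.61 to −7.09). For each of the 14 pairs a two-sided exact permutation test over the arrays, within gravity levels, gave p = 0.0014, which is the smallest that its 700 permutations can give. With the mixed-sex arrays left out the groups were apart for 14 of 14 pairs, with an exact p of 0.025, the smallest for 40 permutations. Where a paralogue was at background on labelled males, its shift understates the change of the pair difference. Each shift also holds the change of the ubiquitous partner. The means of Prosbeta4 were 10.72 on labelled females and 11.27 on labelled males at 1g, and those of Prosbeta4R2 were 4.21 and 3.72. The shift of −0.83 is thus not that of the paralogue alone.

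On the magnet and LDC arrays the paralogues were about where they were on the labelled males of the RPM. Their median was 3.80 to 4.31 on the 37 arrays, and 3 to 12 of the 14 were above background, or 3 to 7 on the 35 that were not mixed-sex arrays. The array with 12 was 80 h 1g* replicate 1, which was above the other replicate of its group for 11 of the 14. Prosalpha4T2, at 4.72 to 5.64 (median 4.97), and Prosbeta2R1, at 4.34 to 5.65 (median 4.67), had the same range with and without those 2 arrays. Prosalpha6T was at 3.54 to 4.45 (median 3.92).

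The ubiquitous subunits had the opposite sign in the RPM and a much smaller difference. They were above background on all 50 arrays. Their median per array was 9.94 to 10.25 for labelled females and 10.35 to 10.62 for labelled males, so that the label groups did not overlap. The highest labelled female array (0g replicate 2) and the lowest labelled male array (0g replicate 1) were both mixed-sex arrays. On the magnet and LDC arrays the median was 10.17 to 10.82, and 10.34 to 10.82 without such arrays.

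**Figure D2:**
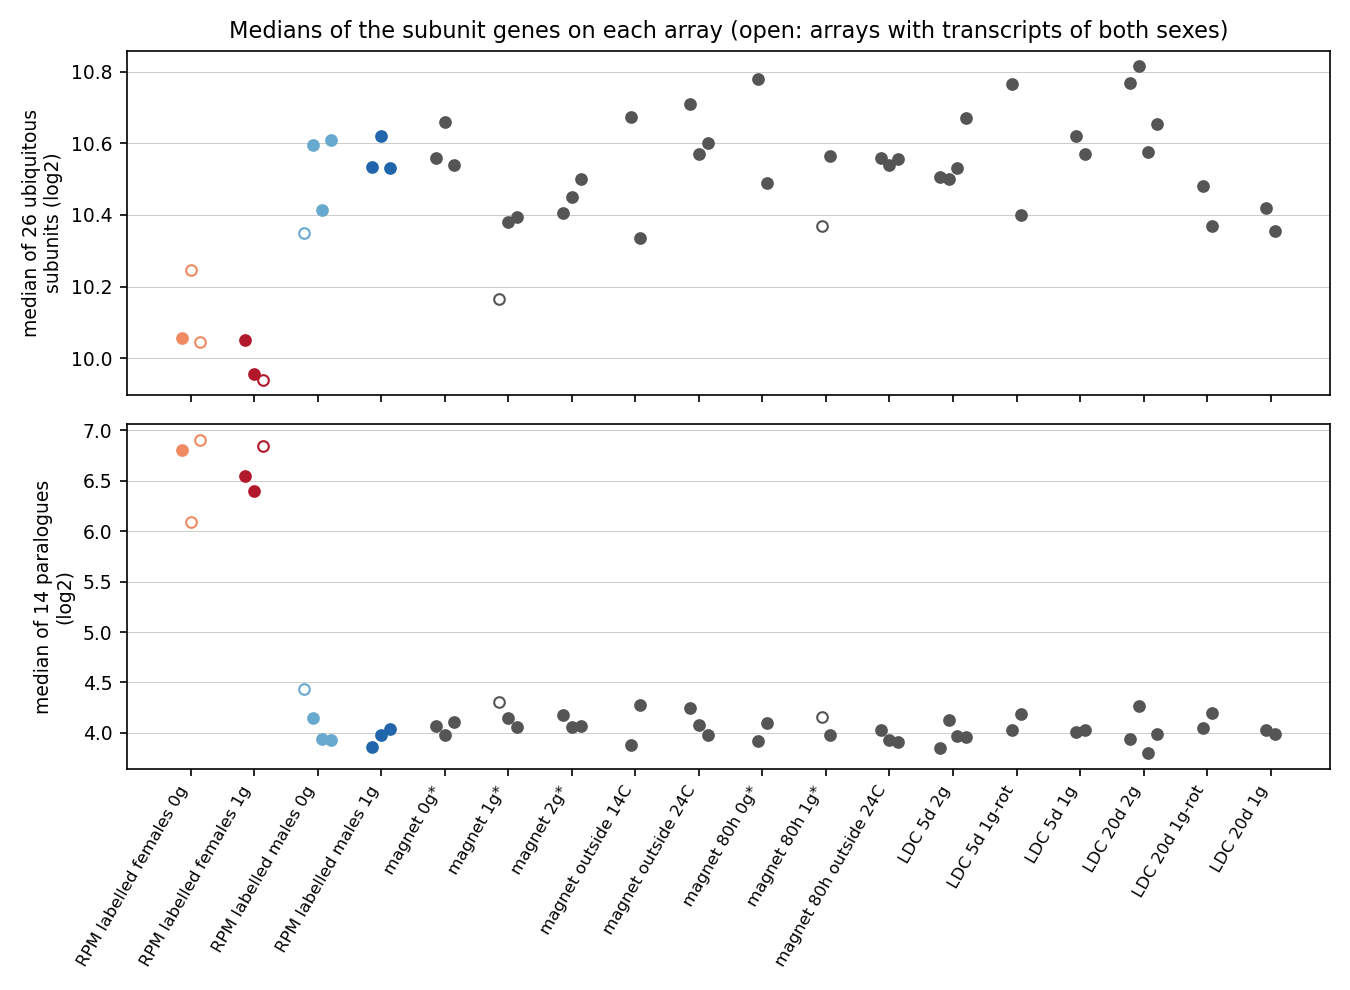
Median log2 level per array of the 26 ubiquitous subunits (top) and of the 14 paralogues (bottom) in the 18 groups, 1 point per array, with open points for the 6 mixed-sex arrays, which had transcripts of both sexes. The labelled females of the RPM are low for the ubiquitous subunits (9.94 to 10.25), a range that among the other arrays holds only magnet 1g* replicate 1 (10.17), and stand apart for the paralogues (6.09 to 6.91).

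At 1g, 24 of 26 ubiquitous subunits rose on labelled males relative to labelled females, at a median of 0.48, where 29.8% of all probe sets rose and the median of all was 0.06. For 25 of the 26 the arrays did not overlap, which held in that direction for 35.4% of all probe sets. In the regulatory particle the lid gene Rpn12 was at 9.68, 9.53 and 9.54 for labelled females at 1g and at 10.49, 10.47 and 10.30 for labelled males, a rise of 0.84 ± 0.14 (adjusted p = 1.4e-04) or 1.79-fold. The lid scaffold gene Rpn5 was at 10.62, 10.57 and 10.61 and at 11.49, 11.42 and 11.30, a rise of 0.80 ± 0.10 (adjusted p = 6.8e-06). The ATPase gene Rpt4 was at 9.38, 9.31 and 9.45 and at 10.09, 10.12 and 10.01, a rise of 0.69 ± 0.10 (adjusted p = 3.9e-05). All 3 regulatory genes thus separated the labels by more than the spread of their arrays. In the core particle Prosalpha6 was at 9.79, 9.89 and 9.90 and at 10.57, 10.58 and 10.42, a rise of 0.66 ± 0.11 (adjusted p = 1.0e-04), while Prosalpha6T fell. Prosbeta7 differed by 0.01 ± 0.09 (adjusted p = 0.96), with 10.98, 11.03 and 11.10 on labelled females and 11.02, 11.06 and 11.05 on labelled males. Prosalpha3 differed by 0.22 ± 0.10 (adjusted p = 0.085).

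The rise was spread over the measured parts of the particle. All 4 measured Rpt genes and all 10 measured Rpn genes rose at 1g, at medians of 0.52 and 0.48. So did 5 of 6 measured alpha genes (median 0.54) and 5 of 6 measured beta genes (median 0.36). At 0g, 16 of 26 rose, at a median of 0.32, where 30% of all probe sets rose and the median of all was 0.13; for 13 the arrays did not overlap, against 30.8% of all probe sets. The largest rise was that of Rpn5, at 10.66, 10.84 and 10.57 on labelled females and 11.28, 11.26, 11.32 and 11.44 on labelled males, a rise of 0.64 ± 0.09 (adjusted p = 4.2e-05). Rpn12 and Prosalpha4 rose by 0.55 each and Rpn11, which encodes the deubiquitinase of the lid, by 0.51. Of the measured genes of each part, 4 of 4 Rpt, 6 of 10 Rpn, 3 of 6 alpha and 3 of 6 beta genes rose at 0g.

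**Figure D3:**
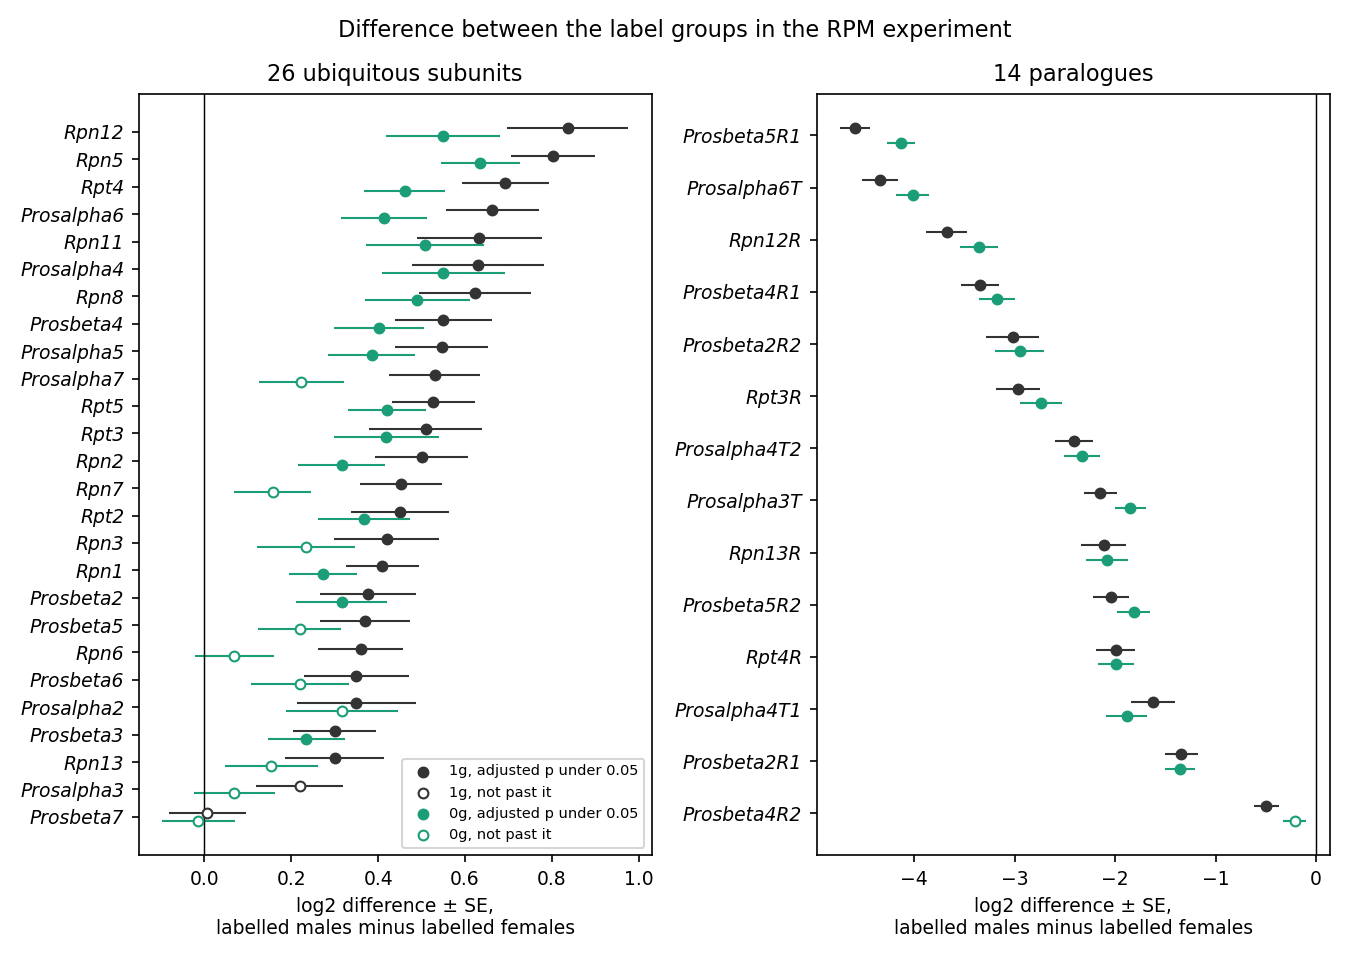
Log2 difference with its standard error between labelled males and labelled females of the RPM at 1g (dark) and 0g (green), for the 26 ubiquitous subunits (left) and the 14 paralogues (right), with filled points past an adjusted p of 0.05. The ubiquitous subunits lie between −0.01 and 0.84 and the paralogues between −4.59 and −0.21.

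The scaling of the arrays bears on the size of the ubiquitous rise. Array medians were 5.68 to 5.85 on labelled females and 5.35 to 5.54 on labelled males, and centring each array on its median raised the median of all differences by 0.37 at 1g and 0.39 at 0g. With that scaling 26 of 26 ubiquitous subunits rose at both gravity levels, at medians of 0.84 and 0.70, and 13 of 14 paralogues still fell, at medians of −1.91 and −1.82. The median of all probe sets was then 0.42 and 0.52. Centring moves all differences of a comparison by the same amount, so the distance of the ubiquitous median from that of all probe sets could not change. Of all 18769 probe sets, the centred values called 11024 higher and 2947 lower at 1g (78.9% of calls higher), against 5587 and 4255 without centring. At 0g they called 12951 of the 18769 higher and 2619 lower (83.2% of calls higher), against 5627 and 4024. Leaving out single arrays moved the number of ubiquitous rises between 19 and 22 at 1g and between 11 and 21 at 0g. GAPDH 3′ minus 5′ differences, a sign of RNA quality, were 1.13 to 1.42 on labelled females and 1.47 to 1.70 on labelled males, and their part in the result was not tested.

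Genes that work with the proteasome were followed on a list of 35 ubiquitin and proteasome partners, of which 30 were measured. At 1g, 11 rose and 10 fell on labelled males, and at 0g 10 rose and 11 fell. Of all probe sets 29.8% rose and 22.7% fell at 1g, and 30% and 21.4% at 0g. The proteasome activator REG was at 8.85 to 9.28 on labelled females and 10.11 to 10.58 on labelled males, a rise of 1.61 ± 0.13 at 1g and 1.20 at 0g. Rad23, which carries ubiquitinated proteins to the proteasome, rose by 1.11 and 0.88, and CSN5, the deneddylase of the signalosome, by 0.83 and 0.68. Roc1b, the RING subunit of a cullin ligase of the testis, had the largest fall of the list, from 8.22 to 8.63 on labelled females to 4.77 to 5.31 on labelled males, by 3.48 ± 0.14 at 1g and 3.26 at 0g. The F-box gene ntc and the deubiquitinase gene Duba, both known from caspase activation in maturing sperm, fell by 1.51 and 1.23 at 1g and by 1.18 and 1.37 at 0g.

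For 0g in the RPM against 1g outside it, no subunit gene passed the threshold. Rotation and effective gravity cannot be told apart in this comparison. In labelled females 0 of 40 passed for 0g against 1g, where 0% of all probe sets did, and an unadjusted limma p under 0.05 was seen for 1 of 40 and for 6.49% of all. The smallest p was that of the lid gene Rpn7, with a difference of 0.23 (adjusted p = 0.77), followed by Rpn1 with 0.17. In labelled males 0 of 40 passed, where 0.00533% of all probe sets did, and 0 had an unadjusted p under 0.05, against 5.74% of all. The smallest p values among positive differences were those of Prosalpha6T and Prosbeta5R1, which were at background in both groups, and among negative ones those of Rpn12 with −0.22 (adjusted p = 0.78) and Rpn6 with −0.16. The median of the ubiquitous subunits was 0.09 in labelled females (21 positive, 5 negative) and −0.07 in labelled males (5 positive, 21 negative). The difference between these effects was negative for 26 of 26 ubiquitous subunits (median −0.15) where 46.5% of all probe sets were negative, and positive for 12 of 14 paralogues. No gene of the 40 passed the interaction test (0% of all probe sets) and 3 had an unadjusted p under 0.05 (9.89% of all). The 4 groups hold 4 of the mixed-sex arrays, and these signs moved with them. Without them the ubiquitous median was 0.04 in labelled females (16 positive, 10 negative) and −0.04 in labelled males (7 positive, 19 negative), and the difference between the effects was negative for 15 and positive for 11 (median −0.06). Leaving out labelled female 0g replicate 2 alone took the median in labelled females to 0.02 and that of the difference to −0.07. Without the mixed-sex arrays labelled females at 0g rest on 1 array, which is assumed to vary like the other RPM groups.

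In the magnet no subunit gene passed in any of 6 comparisons. For 0g* against outside at 14C, 0 of 40 passed (0% of all probe sets) and for 2 the unadjusted p was under 0.05 (3.04% of all), with a ubiquitous median of 0.08. For 2g* against outside these were 0 of 40 (0%) and 0 (4.27%), with a median of −0.07. For 1g* against outside they were 0 of 40 (0.0266%) and 1 (18.6%), with a median of −0.17. In that comparison 25 of 26 ubiquitous subunits were lower, where 50.8% of all probe sets were. For 6 of them the arrays did not overlap, which held in that direction for 12.2% of all probe sets. Rpn12 had the smallest p, with a difference of −0.40 (adjusted p = 0.22), followed by Rpn11 with −0.34. Without 1g* replicate 1, a mixed-sex array, 22 of 26 were lower, at a median of −0.095. The 3 comparisons share the 2 outside arrays, and the size or sign of these medians depended on which was used. Without outside replicate 1 they were 0.23 for 0g*, −0.04 for 1g* and 0.10 for 2g*, and without replicate 2 they were −0.07, −0.31 and −0.22.

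Within the field, the ubiquitous subunits were higher at 0g* than at 1g* for 25 of 26 genes, at a median of 0.23, while the median of all probe sets was −0.04 and 43.6% were positive. For 16 of the 26 the arrays did not overlap, which held in that direction for 11.3% of all probe sets. Prosalpha5 was at 11.10, 11.38 and 11.24 at 0g* and at 10.72, 10.83 and 10.80 at 1g*. Prosalpha4 was at 9.97, 10.21 and 10.10 and at 9.62, 9.76 and 9.63. Both alpha ring genes were thus higher on every 0g* array, by 0.46 ± 0.14 and 0.42 ± 0.12, but neither passed (adjusted p = 0.13 for both). In all, 0 of 40 passed (0.0213% of all probe sets), and 10 of 40 had an unadjusted p under 0.05 where 23% of all probe sets had. The share of small p values over the 40 was thus near the background. They were 9 of the 26 ubiquitous subunits and 1 of the 14 paralogues. In a fit over all 50 arrays 7 passed, and without 1g* replicate 2 the count was 1. The eggshell median was 6.83, 11.84 and 6.88 on the 1g* arrays and 9.88 to 12.72 on the 0g* arrays, and 1g* replicate 1 had transcripts of both sexes and the lowest value of its group for 24 of 26 ubiquitous subunits. The part of the eggshell genes in the difference was not tested. The photoreceptor median was 8.16 to 8.71 at 1g* and 7.41 to 7.87 at 0g*, with no overlap, and the muscle median 12.07 to 12.55 and 11.33 to 12.11, and their part was not tested either. Without 1g* replicate 1 the ubiquitous median was 0.15, with 25 of 26 positive.

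For 2g* against 1g*, which shares the 1g* arrays, 0 of 40 passed (0%) and the unadjusted p was under 0.05 for 1 (14.3%). The ubiquitous median was 0.13 (0.06 without 1g* replicate 1), and Rpn12 had the smallest p with 0.32 (adjusted p = 0.33). Outside the magnet, 24C against 14C gave 0 of 40 (0.48%) and 1 unadjusted (7.69%). There the ubiquitous median was 0.11, with 25 of 26 positive where 51.5% of all probe sets were. It was 0.24 without 14C replicate 1 and −0.02, with 11 positive, without 14C replicate 2. The photoreceptor median was 5.48 to 5.62 at 24C and 7.65 to 8.08 at 14C, and its part was not tested. The smallest p was that of the paralogue Rpn13R (adjusted p = 0.34), with means of 4.54 at 24C and 4.04, at background, at 14C, or at least 1.13-fold higher.

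The 80 h run gave 0 of 40 past the threshold in each of its 3 comparisons. For 0g* against outside at 24C, 0.927% of all probe sets passed, with an unadjusted p under 0.05 for 3 of 40 (11.1% of all). Prosalpha2, with 0.42 (adjusted p = 0.31), and Rpn11, with 0.31, had the smallest p values. For 1g* against outside, 1.01% of all probe sets passed, with an unadjusted p under 0.05 for 5 of 40 (14.2% of all). The smallest p values among positive differences were those of Prosalpha6T (adjusted p = 0.097) and of Rpt3R, with 0.49. Among negative ones they were those of Prosbeta2, with −0.36, and Prosalpha4, with −0.35. The mean of Prosalpha6T was 4.15 at 1g* against 3.63, at background, outside. Its 1g* values were close to background too, at 4.22 and 4.08 on arrays whose background levels were 4.05 and 4.22. The accessory gland median of 80 h 1g* replicate 1 was 8.05 and that of replicate 2 was 3.81, and without replicate 1 the difference of Rpt3R was 0.19. Leaving out either replicate leaves 1 array, assumed to vary like the other groups, and the count past the threshold was then 0 without replicate 1 and 1 without replicate 2. Temperature and magnet cannot be told apart in either comparison, since the outside group was kept at 24C.

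For 0g* against 1g* in the 80 h run, 0.00533% of all probe sets passed, and 8 of 40 subunit genes had an unadjusted p under 0.05 against 6.92% of all. The ubiquitous subunits were positive for 24 of 26 genes, at a median of 0.20, where 55.9% of all probe sets were positive. Of them 15 did not overlap, where 18.8% of all probe sets were higher without overlap. The median was 0.11 without 0g* replicate 1 and 0.395 without 0g* replicate 2. It was 0.23 without 1g* replicate 1, a mixed-sex array. Prosbeta2 differed by 0.53 (adjusted p = 0.66) and Prosbeta7 by 0.41. On the partner list Roc1a, the RING subunit of the common cullin ligases, fell against outside by 0.71 ± 0.13 at 0g* (adjusted p = 0.043) and by 0.74 ± 0.13 at 1g* (adjusted p = 0.034), 2 comparisons that share the outside arrays. Its levels were 7.44 and 7.29 at 0g*, 7.37 and 7.30 at 1g* and 8.12, 7.96 and 8.13 outside, where each array was above those in the magnet.

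**Figure D4:**
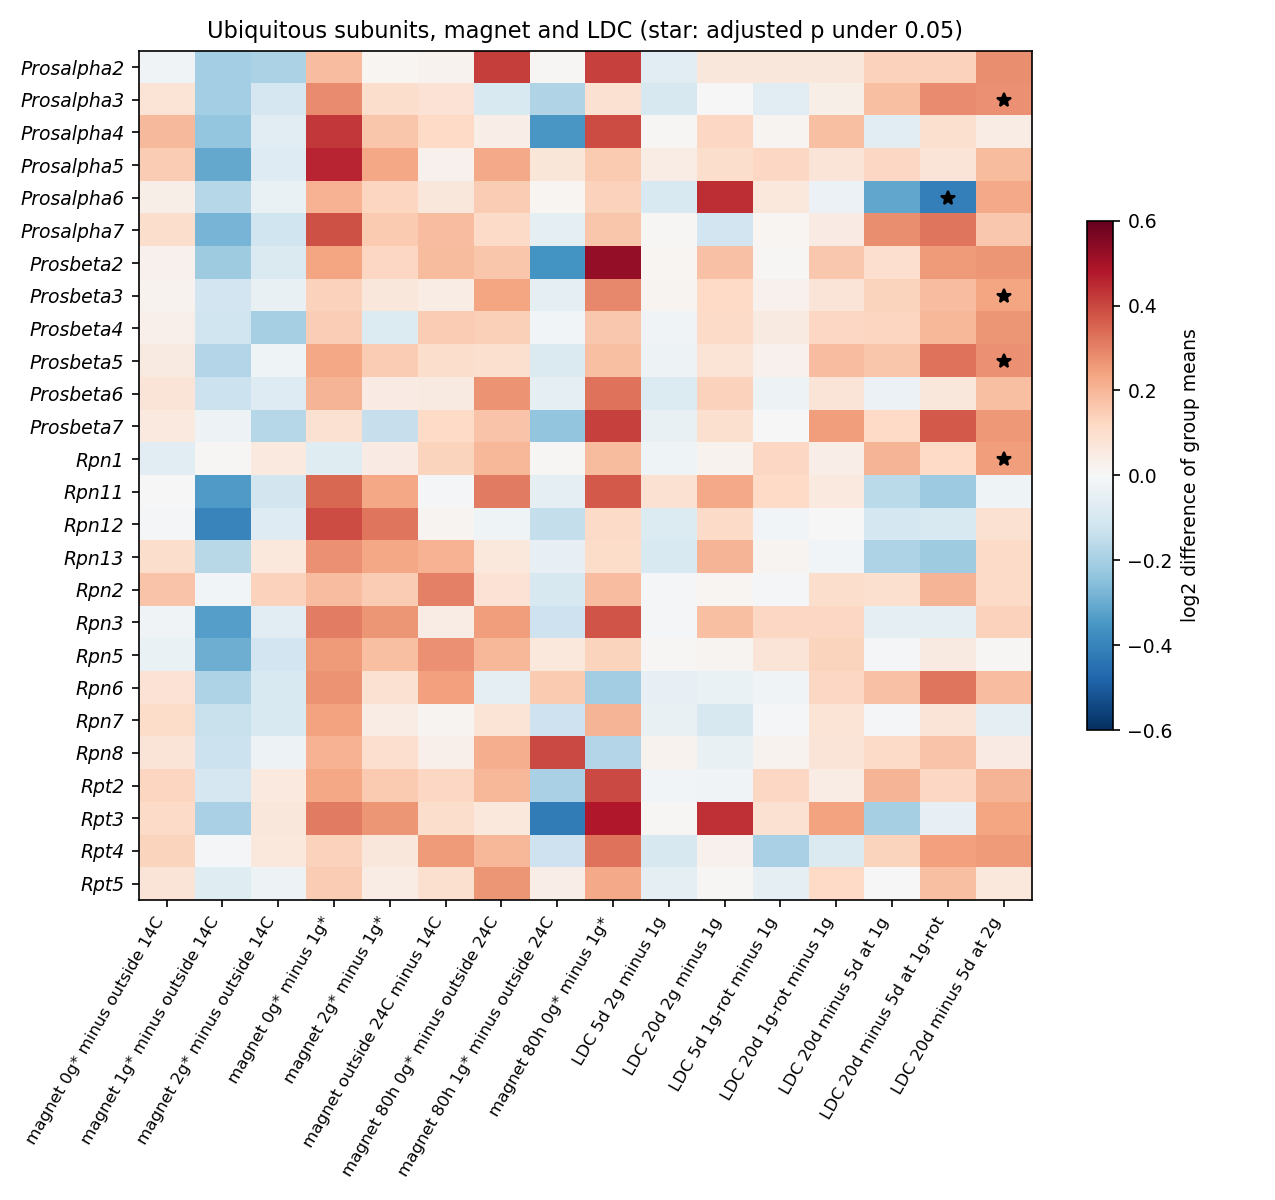
Log2 difference of group means for the 26 ubiquitous subunits (vertical) in the 16 magnet and LDC comparisons (horizontal), with stars at an adjusted p under 0.05. The columns of 0g* against 1g* are mostly positive in both magnet runs without a star, and the 5 stars lie in the comparisons of age at 1g-rot (Prosalpha6, lower) and 2g (4 genes, higher).

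For 2g in the LDC against 1g outside it, no subunit gene passed the threshold either. Rotation and gravity change together there, and 2g was not compared with the rotational control. At 5 days 2g against 1g gave 0 of 40 (0.0586% of all probe sets) and 0 with an unadjusted p under 0.05 (3.92%), with a ubiquitous median of −0.02. At 20 days it gave 0 of 40 (0.852%) and 3 unadjusted (10.7%), with a median of 0.09. Prosalpha6 was then at 10.88, 10.79, 10.67 and 10.72 at 2g and at 10.33 and 10.31 at 1g, a difference of 0.45 ± 0.11 (adjusted p = 0.073). The ATPase gene Rpt3 was at 10.56, 10.55, 10.53 and 10.50 and at 10.19 and 10, a difference of 0.44 (adjusted p = 0.11). Both genes were higher on every 2g array. The interaction of 2g with age was 0.54 for Prosalpha6 (adjusted p = 0.31) and 0.44 for Rpt3, and 0 of 40 passed it (0.0586%) with 2 unadjusted (7.59%). The rotational control against 1g gave 0 of 40 at 5 days (0.0426%), with 1 unadjusted (6.51%), and 0 of 40 at 20 days (0.00533%), with 1 unadjusted (4.36%).

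Besides the RPM labels, calls came only from the comparisons of age. At 1g, 0 of 40 passed for 20 days against 5 days, where 4.98% of all probe sets rose and 6.14% fell, with an unadjusted p under 0.05 for 1 gene (23.3% of all). At 1g-rot Prosalpha6 fell by 0.41 ± 0.12 (adjusted p = 0.030), from 10.83 and 10.56 at 5 days to 10.37 and 10.20 at 20 days, and 0 of the others passed, where 8.22% of all probe sets rose and 10.2% fell. At 1g Prosalpha6 had 10.67 and 10.59 at 5 days and 10.33 and 10.31 at 20 days (−0.31, adjusted p = 0.13). At 2g it differed by 0.23 in the other direction (adjusted p = 0.092). The differences in age effect between the gravity groups were tested only for 2g against 1g, as the interaction above.

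At 2g, 4 of 40 genes rose with age and 0 fell, where 10% of all probe sets rose and 8.86% fell, so the share was that of the background. They were all of the ubiquitous kind. The beta ring gene Prosbeta3 went from 11.34, 11.23, 11.24 and 11.37 to 11.60, 11.56, 11.47 and 11.50, a rise of 0.24 ± 0.08 (adjusted p = 0.039). Prosbeta5, which encodes the chymotrypsin-like subunit, went from 10.90, 10.86, 10.88 and 10.98 to 11.18, 11.28, 11.07 and 11.19, a rise of 0.28 (adjusted p = 0.049). For neither gene did the ages overlap. Prosalpha3 went from 10.56, 10.52, 10.57 and 10.68 to 10.90, 10.98, 10.71 and 10.84, a rise of 0.28 (adjusted p = 0.041). Rpn1, the scaffold of the base that receives ubiquitin carriers, went from 9.32, 9.43, 9.48 and 9.50 to 9.73, 9.81, 9.53 and 9.67, a rise of 0.25 (adjusted p = 0.044). For all 4 genes each array at 20 days was thus above each at 5 days. Over the 26 ubiquitous subunits the median was 0.19, with 24 positive and 12 higher without overlap, where 46.3% of all probe sets were positive and 10.7% were higher without overlap. Among the paralogues 0 of 14 passed at any gravity level.

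These ageing calls were close to the threshold. At 2g 0 genes passed with each array centred on its median or with the replicate number in the fit, and 6 with repeated quantile normalization. Leaving out single arrays gave 0 to 6 genes at 2g, with 0 without replicates 1, 2 or 3 at 5 days or replicates 1, 2 or 4 at 20 days, and 6 without replicate 3 at 20 days. At 1g-rot it gave 0 without replicate 1 at 20 days and 6 without replicate 1 at 5 days. The muscle marker median was 11.66 to 12.21 on the LDC arrays at 5 days and 9.48 to 9.99 at 20 days, and the eggshell median was 5.91 and 8.56 on the 1g-rot arrays at 20 days, against 9.58 and 10.69 at 5 days. Their part in these differences was not tested.

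**Figure D5:**
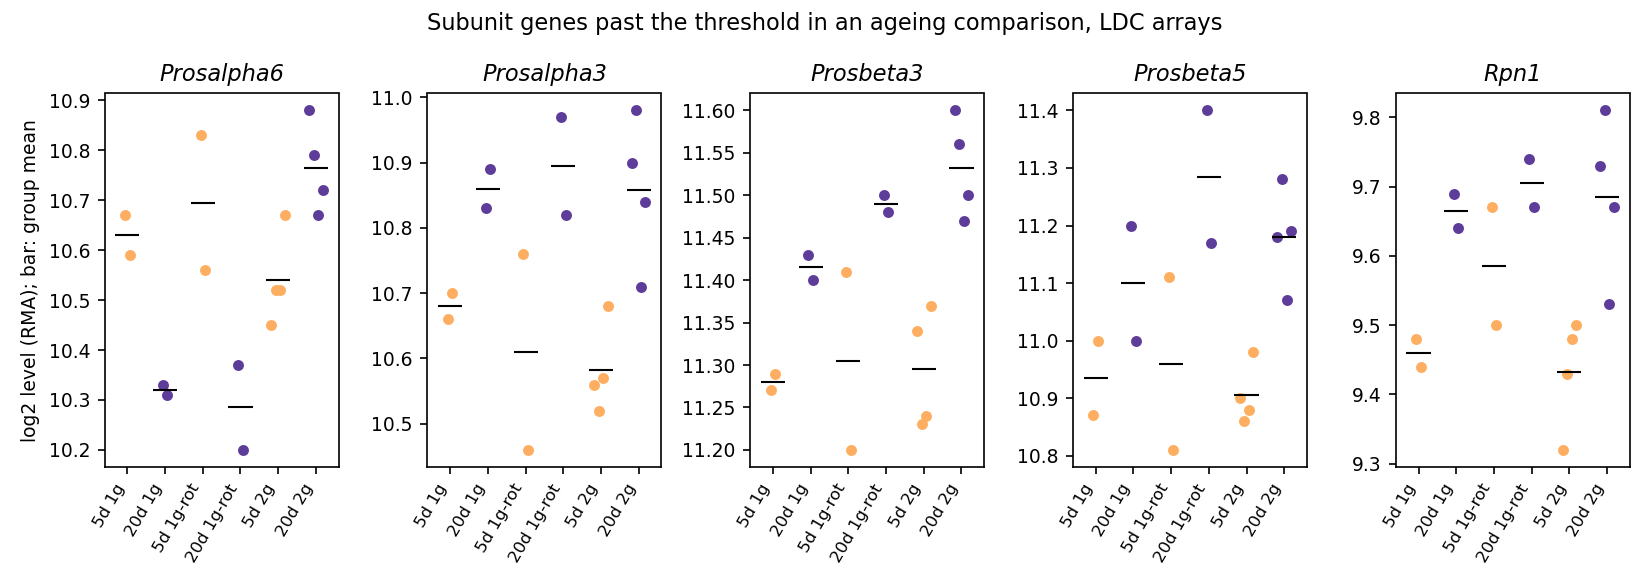
Log2 levels on the LDC arrays of the 5 subunit genes past an adjusted p of 0.05 in a comparison of age, 1 point per array (orange 5 days, violet 20 days), with bars at group means and a separate vertical axis for each gene. The mean of Prosalpha6 is lower at 20 days at 1g and 1g-rot (past the threshold at 1g-rot) and those of Prosalpha3, Prosbeta3, Prosbeta5 and Rpn1 are higher at 20 days at 2g.

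On the partner list of 30 measured genes, 3 rose and 2 fell with age at 1g, where 4.98% and 6.14% of all probe sets did. At 1g-rot 6 rose and 3 fell (8.22% and 10.2% of all), and at 2g 6 rose and 0 fell (10% and 8.86% of all). The polyubiquitin gene Ubi-p63E rose by 0.65 at 1g, 0.68 at 1g-rot and 0.34 at 2g. The gene cnc, which encodes the transcription factor that raises proteasome genes in flies when the proteasome is inhibited, rose by 0.51 at 1g, 0.57 at 1g-rot and 0.37 at 2g. Roc1a rose by 0.58 at 1g, 0.33 at 1g-rot and 0.64 at 2g, and Bruce, a large ubiquitin-conjugating inhibitor of apoptosis, by 0.61 at 2g. At 1g Npl4, a cofactor of the segregase that hands substrates to the proteasome, fell by 0.50. PI31, a regulator that binds the core particle, rose by 0.64 at 1g-rot, while REG fell by 0.63 and APP-BP1, a subunit of the enzyme that activates NEDD8, by 0.71.

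Across the 14 magnet and LDC groups, group means of a ubiquitous subunit spanned 0.34 (Rpn7) to 0.95 (Prosbeta2), with a median span of 0.54 against a median within-group SD of 0.13. Those of the paralogues spanned 0.20 (Prosbeta4R2) to 0.85 (Rpt3R), with a median span of 0.43 against an SD of 0.18. Some ranges differed between the runs of the magnet, though they overlapped. Prosbeta5 was at 11.19 to 11.52 on the 7 arrays of the 80 h run and 10.64 to 11.20 on the 14 of the other magnet run. Rpn1 was at 8.96 to 9.50 and 9.29 to 9.82, and Rpn8, a lid gene, at 9.77 to 10.59 and 9.79 to 10.21, with 9.61 to 9.88 in the LDC. The eIF-4a 3′ minus 5′ difference, another sign of RNA quality, was 2.43 to 3.34 on the 80 h arrays and 1 to 1.88 on the other magnet arrays. Differences between runs or facilities were not tested.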

How the data were processed

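Total RNA of adult flies was hybridised to 50 arrays. The authors' deposited values are log2 intensities computed with RMA and given with 2 decimals. The labels also name limma, and for both tools the version is not given in the sources used here. Of 18952 probe sets, 183 controls were left out. Arrays have no read depth, so the number of arrays limits the precision. No array was a copy of another: correlations reached 0.9963, and at most 2.54% of values were equal.

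Group means were fitted per facility with limma 3.58.1 (R 4.3.3) over the RPM, magnet, 80 h magnet and LDC arrays, with moderated variances, 20 contrasts and 2 interactions. P values were adjusted over all 18769 probe sets (Benjamini-Hochberg), with a threshold of 0.05. The labels do not say whether replicates came from separate cultures, so p values measure the spread between these arrays. A gene was at background where its group mean was under the mean of its arrays' background levels, and its fold is then a bound against the higher of each array's background level and its own value. The array titled outside 24C replicate 1 carries 14C among its characteristics, and the title was followed. The fit was tested on simulated data with known changes.

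All subunit genes were counted, every paralogue was named, and ubiquitous subunits were named from the 4 largest rises and falls past the threshold in a comparison, or else the 2 smallest p values per direction. Partner genes were named from the 3 largest rises and falls. Members and lists were chosen with earlier results of these data known. Alternatives covered scaling, a filter on dim probe sets, the arrays in the fit, the probe sets per gene, the replicate block and leaving out arrays.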

Additional observations from a re-analysis of the deposited data

Results flagged for a closer look

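In the 3 groups with 4 arrays, 126 sets of values were examined (the 40 genes and the medians of both kinds of subunit), and 8 held an array far from the others of its group. Chance gives about 1 in 20 such sets. In labelled males at 0g the lid gene Rpn8 was at 9.78 on replicate 2, where the others were at 10.13 to 10.19. The other 7 were in the LDC group at 2g and 5 days. There replicate 4 was high for Prosalpha4 (10.13, others 9.96 to 9.98) and for the ubiquitin receptor gene Rpn13 (10.54, others 10.19 to 10.22), and low for the paralogue Prosbeta5R1 (3.40, others 3.57 to 3.58). Replicate 2 was high for the paralogue Rpn13R (4.10, others 3.82 to 3.85) and for Rpn5 (11.21, others 11.14), and low for Rpn7 (9.66, others 9.93 to 9.96). Replicate 3 was high for the ATPase gene Rpt5 (10.19, others 10.08 to 10.09). None of these 7 genes passed the threshold in a comparison of that LDC group.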

How the results depend on the processing

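Of 395 alternative counts of subunit genes past the threshold, 373 stayed within 1.5 times the reported count and 22 did not. Of 1108 alternative values of named genes, 1023 kept direction and side of the threshold, 85 kept direction but missed it, and 0 reversed. Centring each array gave 26 ubiquitous rises in place of 16 at 0g in the RPM, and 0 in place of 4 ageing calls at 2g. Repeated quantile normalization gave 1 in place of 0 for LDC 2g against 1g at 20 days and 4 in place of 1 for age at 1g-rot. A single fit of all 50 arrays gave 7 in place of 0 for magnet 0g* against 1g*, 1 in place of 0 for LDC 2g against 1g at 20 days and 2 for age at 1g-rot. Fits restricted to the compared groups gave, for age, 0 at 1g-rot and 2 at 2g. At 1g-rot the filter on dim probe sets and the mean over probe sets of a gene each gave 3. Each subunit gene had 1 probe set, so that mean left the values of the subunit genes themselves unchanged. The cause was not tested in these cases.

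Leaving out each array in turn, the RPM label gave 33 to 36 genes at 1g and 25 to 34 at 0g, with 14 to 14 and 13 to 14 paralogue falls and 19 to 22 and 11 to 21 ubiquitous rises. Age gave 0 to 6 at 1g-rot and at 2g. Magnet 0g* against 1g* and 80 h 1g* against outside gave 0 to 1, and every other comparison 0 to 0.

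A replicate block gave 38 genes for the RPM label at 1g, 28 at 0g (15 ubiquitous rises), 1 for age at 1g-rot and 0 in place of 4 for age at 2g, and changed no other count from 0. Over 48 pairs of equal number the correlation of deviations was −0.34 to 0.47 and 14 were over 0.1, so the numbers were not taken to pair the arrays.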
